A study of Mus musculus with 22 samples.

Results

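The genes described here are Ptbp1, Ptbp2, Rbm20, Rbm24, Mbnl1, Mbnl2, Celf1, Celf2 and Qk, RNA-binding proteins that set which exons a muscle or other differentiated cell keeps in its transcripts. They were chosen by gene name, 9 of the 18061 named genes that had a usable signal in a mouse array study of direct cardiac reprogramming. All 9 were measured and tested. The study followed cardiac fibroblasts (CF) of CD1 mice over the days after infection with a retrovirus, by 1-colour hybridisation of total RNA to Agilent arrays. Every culture carried aMHC-GFP, a green fluorescent reporter under the promoter of a cardiac myosin heavy chain gene. Untransduced CF were taken at day 0 (D0). The other cultures received either a polycistronic transgene of the cardiac transcription factors Mef2c, Gata4 and Tbx5 (MGT), which turns a share of fibroblasts into induced cardiomyocytes (iCM), or lacZ as the control gene. Both were taken at days 3, 5, 7, 10 and 14, which made 11 groups of 2 arrays, 22 in all. The labels do not say whether the 2 samples of a group came from separate cultures or animals, so p-values measure only how far these samples spread, and that spread may be technical.

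PTBP1 is a broadly expressed repressor of exons that binds pyrimidine-rich stretches of pre-mRNA, and it is known as a splicing barrier to the iCM fate. PTBP2 is its close relative of neurons, whose own transcript PTBP1 restrains through a skipped exon. RBM20 and RBM24 are muscle regulators: RBM20 represses exons of the titin gene in heart, and RBM24 promotes inclusion of muscle exons. MBNL and CELF proteins act against each other on many exons that switch as the heart matures after birth. QK (quaking) binds a short RNA motif and acts in muscle, vessels and myelinating glia. The arrays measured transcript levels of these regulators, not the inclusion of exons.

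Levels are given as the log2 processed signal of a gene's brightest probe minus the 75th percentile of all probes on the same array, so 0 is that percentile and a difference of 1 is a doubling. They can be compared between arrays for a probe, and not between genes. The 9 genes had 20 probes, of which 19 stood clear of background in both samples of some group. Of the 22 arrays, 48.4% to 71.0% of probes per array were well above background, and no spot was saturated. The day 14 lacZ arrays stood apart: the second had a 75th percentile of 729 against 1285 to 2124 on the other 21, and the median gene differed between this pair by 0.26 (log2), against 0.06 to 0.19 in the other groups. Days 3 and 5 were hybridised on 1 slide and days 7 and 10 on another, each with both vectors. The D0 and day 14 lacZ arrays shared another slide, and the day 14 MGT arrays had a slide of their own. The day 14 MGT and lacZ arrays therefore cannot be told apart from their slides. The cells carried fibroblast RNA in every group: all 10 fibroblast markers, among them the collagen genes Col1a1, Col1a2 and Col3a1, were well above background on every array.

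Where a probe lies decides which transcripts of a splicing regulator it reads, and 3 probes from coding stretches are shown because the results below turn on them. The first reads Rbm20 across an intron, at chr19:53909212-53915470 (mm9, plus strand), so it matches spliced RNA. The second, the most upstream of the Qk probes on that strand, lies at chr17:10409026-10409085 (mm9, minus strand). The last reads Mbnl2 at chr14:120803865-120803924 (mm9, plus strand).
Rbm20 probe A_52_P642626: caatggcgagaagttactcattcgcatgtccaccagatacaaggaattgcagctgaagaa
Qk probe A_55_P2143150: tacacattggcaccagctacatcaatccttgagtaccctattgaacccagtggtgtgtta
Mbnl2 probe A_55_P2106265: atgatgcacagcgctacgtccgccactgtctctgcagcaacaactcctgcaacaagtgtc

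**Figure D1:**
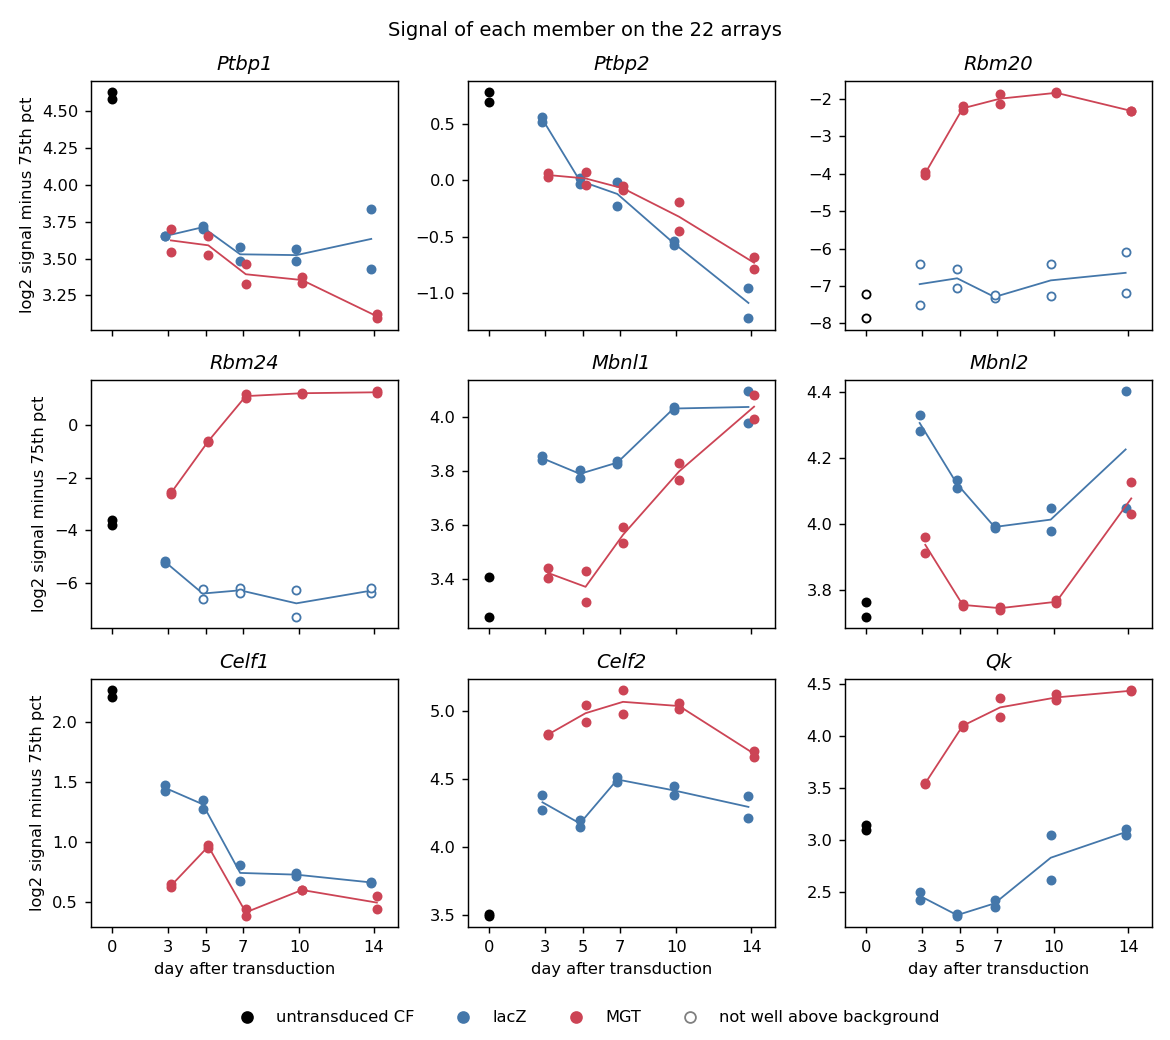
Signal of each gene's brightest probe (vertical axes, log2 over the array's 75th percentile, scaled per gene) against the day after transduction, 1 point per array, with lines through the means of 2 arrays. Open points were not well above background. Rbm24 and Rbm20 were high on all 10 MGT arrays, Qk and Celf2 did not overlap between vectors, and Ptbp1 and Celf1 were highest at day 0.

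Averaged over the 5 days, Rbm24, Rbm20, Qk and Celf2 were higher with MGT than with lacZ, and Ptbp1, Mbnl1, Mbnl2 and Celf1 were lower. Ptbp2 did not pass the test. The higher genes differed by 0.58 to 6.25 (log2) and the lower ones by -0.36 to -0.20. In the same comparison 63.9% of 18060 genes tested passed (limma, Benjamini-Hochberg adjusted p under 0.05), 23.3% higher and 40.6% lower, and the median gene differed by -0.09. Scaling on probes above background on every array gave 5461 genes higher and 5627 lower, against 4200 and 7337 with the percentile of all probes, and a median of -0.01. The count of 8 of 9 regulators is therefore read against a background in which most genes differed. Of these regulators, Rbm20 was kept by the filter on dim signals only through its MGT groups. In these bulk samples a change in the share of a cell type and a change in RNA per cell cannot be told apart.

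Rbm24, the regulator of muscle exons, was higher with MGT on every day. The D0 fibroblasts read -3.79 and -3.60. The lacZ arrays read -5.25 and -5.15 at day 3, -6.20 and -6.58 at day 5, -6.19 and -6.36 at day 7, -6.24 and -7.29 at day 10, and -6.38 and -6.18 at day 14. The MGT arrays read -2.54 and -2.63 at day 3, -0.63 and -0.59 at day 5, 1.16 and 1.03 at day 7, 1.22 and 1.19 at day 10, and 1.29 and 1.20 at day 14. Every MGT array was above every lacZ array and above both D0 arrays, and the lacZ arrays from day 5 on were not well above background. MGT arrays climbed from day 3 to day 7, and the day 14 and day 10 groups then overlapped. The fitted average was 6.25 (SE 0.11, limma adjusted p = 1.72e-14), which rests in part on lacZ signals at background and sets no rank against Rbm20. It was 2.61 at day 3, a 6.13-fold difference (SE 0.24, adjusted p = 2.51e-06). Later folds are lower bounds, since the control was dim: at least 15.2-fold at day 5, 123-fold at day 7, 56.6-fold at day 10, and 59.8-fold on day 14. A bound sets the mean of the bright group against the dimmest signal still well above background on the dim arrays, so these bounds also move with the arrays' own background. Under normexp background correction the averaged difference was 4.0.

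Rbm24 fell in the control cells. From D0 to lacZ day 3 it fell by 1.5 (adjusted p = 0.000118), a 2.84-fold lower signal, and at lacZ day 14 it was at least 1.95-fold lower. Under normexp background correction these differences were -0.67 and -0.54, both still past the threshold. Cardiomyocyte markers were lower for 3 and higher for 1 of 10 in lacZ day 3, and lower for 8 and higher for 1 in lacZ day 14 with a median of -2.63. Their part in the fall was not tested. MGT day 3 was 1.11 above D0 (adjusted p = 0.00112). That rise kept its direction and missed the threshold under quantile normalization, at 1.05 (adjusted p = 0.12).

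Because the delivered factors bind DNA, the 250 bases before the start site of Rbm24 are shown as an example, from RefSeq's GRCm38.p6 table, chr13:46418050-46418299, plus strand. Capitals mark a T-box match, AGGTGT. It is the only match in this window to the motifs searched on both strands, GATAA for GATA factors, AGGTGT for T-box factors and the MEF2 box by its name.
Rbm24 promoter: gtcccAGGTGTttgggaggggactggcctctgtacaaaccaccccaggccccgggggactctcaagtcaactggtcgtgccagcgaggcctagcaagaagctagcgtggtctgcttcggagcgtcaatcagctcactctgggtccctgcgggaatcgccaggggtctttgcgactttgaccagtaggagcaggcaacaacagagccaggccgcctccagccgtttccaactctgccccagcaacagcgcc
The match starts at position -245 from the start site. Of 32851 promoter windows of the same length, 11.8% held the T-box motif, 22.6% the GATA motif and 2.92% the MEF2 box. Windows were found for 8 of the 9 genes, 13 in all. Besides Rbm24, 1 of the 5 Celf2 windows held a GATA and a T-box match. The windows of Ptbp1, Ptbp2, Mbnl1, Mbnl2, Celf1 and Qk held none of these letters. A match is a description of letters and shows no binding.

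Rbm20, the cardiac repressor of titin exons, was well above background in MGT cultures only. Both of its probes were well above background on all 10 MGT arrays, on 0 of 10 lacZ arrays and on 0 of 2 D0 arrays. With MGT the signals were -3.95 and -4.02 at day 3, -2.30 and -2.19 at day 5, -1.86 and -2.12 at day 7, -1.84 and -1.82 at day 10, and -2.31 and -2.33 at day 14. The lacZ arrays lay between -7.50 and -6.10 with a median of -7.13, and the D0 arrays read -7.23 and -7.87. No MGT array overlapped a control array, day 10 was the highest group, and day 14 lay below day 5. Averaged over days the bound was at least 6.23-fold. By day it was at least 3.79-fold (day 3), 4.89-fold (day 5), 14.5-fold (day 7), 6.88-fold (day 10) and 5.07-fold (day 14). The fitted difference was 4.44 (SE 0.18, adjusted p = 8.30e-11), a value that rests on signals at background and was 2.16 under normexp background correction. Rbm20 was kept by the filter on dim signals only through its MGT groups. Its p-value and its lack of overlap with the controls were partly set by that filter and are no separate support. MGT was at least 2.48-fold above D0 at day 3 and at least 7.87-fold at day 14. The further probe, A_55_P2102444, gave a fitted average of 3.20, also against lacZ signals that were not well above background, so the probes' differences cannot be compared.

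Qk, by its brightest probe, was higher with MGT on every day. Not all of its probes rose at day 3, as given below. The D0 arrays read 3.1 and 3.15. Control lacZ cultures gave 2.43 and 2.51 at day 3, 2.29 and 2.27 at day 5, 2.42 and 2.36 at day 7, 2.61 and 3.05 at day 10, and 3.11 and 3.05 at day 14. MGT cultures gave 3.54 and 3.55 at day 3, 4.09 and 4.11 at day 5, 4.37 and 4.18 at day 7, 4.40 and 4.34 at day 10, and 4.43 and 4.44 at day 14. For the brightest probe, every MGT array exceeded every lacZ and D0 array. The averaged difference was 1.54 (SE 0.05, adjusted p = 6.16e-12), a 2.90-fold higher signal, and by day it ran from 1.08 at day 3 to 1.88 at day 7. In the control cells Qk fell by 0.66 from D0 to day 3 (adjusted p = 0.000144) and at day 14 differed by -0.04 (adjusted p = 0.72). That day 14 value holds for the brightest probe: the mean of the kept probes gave -0.56 (adjusted p = 1.23e-05) and the authors' deposited table -0.44 (adjusted p = 0.000542). In MGT cells it was 0.42 above D0 at day 3 (adjusted p = 0.00337) and 1.31 above at day 14 (adjusted p = 1.07e-07). The day 3 call was lost in the deposited table, at 0.0361 (adjusted p = 0.77), and the value turned to -0.0352 as the mean of the kept probes.

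Celf2, of the family that acts against MBNL on many exons, also showed no overlap between vectors. The share of all genes without such overlap was not counted, here or for Rbm24, Rbm20 and Qk. The lacZ arrays read 4.38 and 4.27 at day 3, 4.2 and 4.15 at day 5, 4.48 and 4.52 at day 7, 4.45 and 4.38 at day 10, and 4.22 and 4.37 at day 14. The MGT arrays read 4.82 and 4.83 at day 3, 5.05 and 4.92 at day 5, 5.16 and 4.98 at day 7, 5.06 and 5.02 at day 10, and 4.71 and 4.66 at day 14. The D0 arrays, at 3.49 and 3.50, lay under all of them. The averaged difference was 0.58 (SE 0.03, adjusted p = 3.28e-09), or 1.49-fold, with its highest value of 0.81 at day 5 and its lowest of 0.39 at day 14. Its other probes gave 0.52 and 0.65, and neither differed from the brightest probe beyond the threshold (adjusted p = 0.15 and 0.41).

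Markers of cardiomyocytes were, like Rbm24, Rbm20, Qk and Celf2, higher with MGT than with lacZ. From D0 to lacZ day 14, 8 of these 10 markers were lower and 1 was higher. Over the same step Rbm24 was lower, Celf2 was higher by 0.80, and Qk differed by -0.04 (limma adjusted p = 0.72). Rbm20 was not well above background in either group. All 10 cardiomyocyte markers were higher with MGT in the averaged comparison, with a median difference of 6.69. Among them Pln was well above background on 0 of 10 lacZ arrays and 8 of 10 MGT arrays. Their summed signal (log2 of the sum over the list) was 8.42 to 8.47 in MGT day 3 and 9.69 to 9.77 in MGT day 14, against 5.83 to 5.90 and 3.73 to 3.90 in lacZ. It was 4.12 to 4.30 at D0, where 8 to 9 of the 10 were well above background. Of the 10 fibroblast markers 9 were lower and 1, Thy1, was higher, with summed signals of 9.01 to 9.06 in MGT day 14 and 10.11 to 10.73 in lacZ day 14. Skeletal muscle markers were higher for 5 of 6 and lower for 0. Of these, Myog and Myh3 were well above background on 0 of 10 lacZ arrays and on 4 and 5 of 10 MGT arrays. The filter on dim signals may have set the calls of Pln, Myog and Myh3 in part, so they are no separate support. Epicardial and mesothelial markers were higher for 4 and lower for 2 of 6 (median 1.00), smooth muscle markers higher for 1 and lower for 3 of 6, and glia markers higher for 2 and lower for 1 of 6. Endothelial markers were higher for 0 and lower for 7 of 8, and macrophage markers passed in neither direction for 8 of 8. Their part in the results was not tested.

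**Figure D2:**
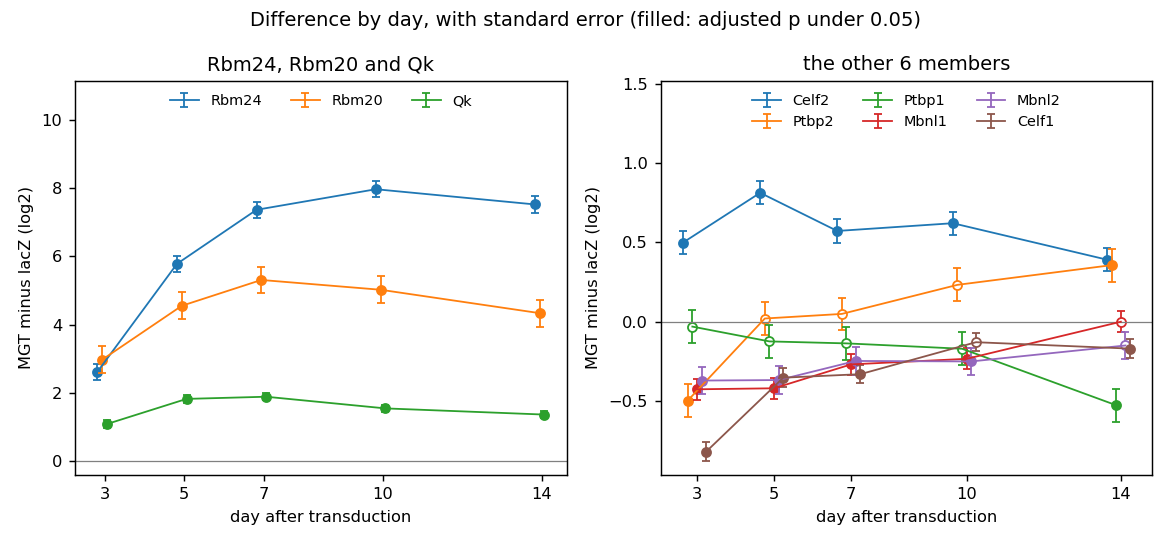
MGT minus lacZ (vertical axes, log2) by day after transduction, with the standard error of the fit. Filled points passed an adjusted p of 0.05. Rbm24, whose lacZ signal was not well above background after day 3, passed on all 5 days, Ptbp1 passed at day 14 only, and Ptbp2 went from -0.50 at day 3 to 0.36 at day 14.

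Ptbp1, the repressor known as a barrier to the iCM fate, fell in culture with either vector, and at day 14 was lower with MGT than with lacZ. The D0 arrays read 4.58 and 4.63. With lacZ the signals were 3.65 and 3.65 at day 3, 3.72 and 3.70 at day 5, 3.58 and 3.48 at day 7, 3.56 and 3.48 at day 10, and 3.43 and 3.83 at day 14. With MGT the signals were 3.54 and 3.70 at day 3, 3.53 and 3.65 at day 5, 3.46 and 3.33 at day 7, 3.37 and 3.34 at day 10, and 3.1 and 3.12 at day 14. D0 was highest and separate from the next group, MGT day 14 was lowest and separate, and between them most neighbouring groups overlapped. Against D0, Ptbp1 fell by 0.95 in lacZ day 3 (adjusted p = 5.08e-06) and by 0.98 in MGT day 3 (adjusted p = 2.71e-06), 1.93-fold and 1.97-fold lower. At day 14 it was 0.97 lower in lacZ (1.96-fold) and 1.5 lower in MGT (2.82-fold).

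MGT minus lacZ for Ptbp1 was -0.03 at day 3, -0.12 at day 5, -0.14 at day 7, and -0.17 on day 10, none past the threshold (adjusted p of 0.23 to 0.89). At day 14 it was -0.52 (SE 0.11, adjusted p = 0.00118), a 1.44-fold lower signal. The average over the 5 days was -0.20 (SE 0.05, adjusted p = 0.0025). Over days 3 to 10, when both vectors shared a slide, the average was -0.11 and did not pass (SE 0.05, adjusted p = 0.079). It was -0.08 on the slide of days 3 and 5 (adjusted p = 0.44) and -0.15 on that of days 7 and 10 (adjusted p = 0.11). The averaged call therefore rested on day 14, where the vectors lay on different slides. Without the second day 14 lacZ array the day 14 difference was -0.32 (adjusted p = 0.00703) and without the first it was -0.73 (adjusted p = 1.4e-05), and with only the day 14 arrays in the fit its adjusted p was 0.14. Quantile normalization gave an average of -0.11 (adjusted p = 0.034), and scaling on probes above background everywhere gave -0.12 (adjusted p = 0.041).

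A second Ptbp1 probe, A_55_P2171623 at chr10:79325963-79326022 (mm9, plus strand), lies upstream in the transcript of the brightest one, A_51_P462692 at chr10:79326905-79326963. It gave -0.22 for the average and -1.54 for MGT day 14 against D0. These differed from the values of the brightest probe by -0.02 (SE 0.11) and -0.04 (SE 0.24), with adjusted p of 0.91 and 0.92. For MGT minus lacZ the second probe gave 0.08 at day 10. At day 14 it gave -0.43 and did not pass (SE 0.19, limma adjusted p = 0.10). Taken singly, only the brightest probe thus passed at day 14. The second probe differed from it there by 0.10 (SE 0.24, limma adjusted p = 0.81). The gene's day 14 call was kept under 12 of 13 alternatives.

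Ptbp2, whose transcript PTBP1 restrains, fell over time with both vectors and crossed between them. The D0 arrays read 0.78 and 0.69. Control lacZ cultures gave 0.52 and 0.57 at day 3, 0.02 and -0.03 at day 5, -0.23 and -0.01 at day 7, -0.58 and -0.54 at day 10, and -1.23 and -0.95 at day 14. MGT cultures gave 0.03 and 0.06 at day 3, 0.07 and -0.04 at day 5, -0.09 and -0.05 at day 7, -0.45 and -0.19 at day 10, and -0.79 and -0.68 at day 14. MGT lay below lacZ without overlap at day 3, the pairs overlapped at days 5 and 7, and MGT lay above without overlap at days 10 and 14. The share of all genes whose pairs were separate on a given day was not counted. The difference was -0.50 at day 3 (SE 0.10, adjusted p = 0.00251), 0.23 at day 10 (adjusted p = 0.094), and 0.36 on day 14 (SE 0.10, adjusted p = 0.0121). The day 3 call was lost under normexp background correction, at -0.46 (adjusted p = 0.078), and in the authors' deposited table, at -0.46 (adjusted p = 0.079). The day 14 value was 0.02 under normexp background correction, 0.05 in the authors' deposited table and 0.22 without the first day 14 lacZ array, none past the threshold. From D0 to day 14 Ptbp2 fell by 1.83 in lacZ (3.55-fold, adjusted p = 3.64e-09) and by 1.47 in MGT (2.77-fold, adjusted p = 2.60e-08).

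Celf1, of the same family as Celf2, fell from D0 with both vectors and fell earlier with MGT. The D0 arrays read 2.27 and 2.21. The lacZ arrays read 1.48 and 1.43 at day 3, 1.36 and 1.28 at day 5, 0.68 and 0.81 at day 7, 0.71 and 0.74 at day 10, and 0.67 and 0.66 at day 14. The MGT arrays read 0.65 and 0.62 at day 3, 0.98 and 0.95 at day 5, 0.44 and 0.39 at day 7, 0.60 and 0.60 at day 10, and 0.55 and 0.45 at day 14. On every day the MGT pair lay below the lacZ pair, and the share of all genes so separated was not counted. MGT was low by day 3 and higher again at day 5, while lacZ came down between days 5 and 7. The difference was -0.82 at day 3 (SE 0.06, adjusted p = 2.58e-07), -0.35 at day 5, -0.33 at day 7, -0.13 at day 10 (adjusted p = 0.10), and -0.17 on day 14 (adjusted p = 0.03). The day 14 call was lost under 5 alternatives, among them scaling on probes above background everywhere, at -0.06 (adjusted p = 0.42), and without either lacZ array (adjusted p of 0.057 and 0.061). The average was -0.36 (SE 0.03, adjusted p = 4.45e-08). From D0 to day 14 Celf1 fell by 1.58 in lacZ (2.98-fold) and by 1.75 in MGT (3.35-fold).

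Mbnl1, whose activity rises in the maturing heart, was lower with MGT early and level with lacZ at day 14. The D0 arrays read 3.41 and 3.26. With lacZ the signals were 3.85 and 3.84 at day 3, 3.77 and 3.81 at day 5, 3.83 and 3.84 at day 7, 4.04 and 4.03 at day 10, and 3.98 and 4.10 at day 14. With MGT the signals were 3.44 and 3.40 at day 3, 3.43 and 3.31 at day 5, 3.59 and 3.54 at day 7, 3.83 and 3.77 at day 10, and 4.08 and 3.99 at day 14. The pairs were separate on days 3 to 10 and overlapped at day 14, with the share of all genes so separated not counted. The difference was -0.42 at days 3 and 5, -0.27 at day 7, -0.23 at day 10 (adjusted p = 0.0121), and 0.00 on day 14 (adjusted p = 0.99). Normexp background correction lost the calls of days 3 to 10 (adjusted p of 0.066 to 0.21). At day 14 it gave -0.30 (adjusted p = 0.094), while quantile normalization gave 0.16, past the threshold (adjusted p = 0.042). The average was -0.27 (SE 0.03, adjusted p = 2.65e-06). In the authors' deposited table the average was 0.08 (adjusted p = 0.41). For Mbnl1 that table minus the brightest probe was -4.84 (log2, median of arrays), and the gene's second probe was well above background on 0 of 22 arrays.

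By its brightest probe, Mbnl2 was higher in both day 14 groups than at D0, and lower with MGT than with lacZ on average. The D0 arrays read 3.76 and 3.72. Control lacZ cultures gave 4.33 and 4.28 at day 3, 4.11 and 4.13 at day 5, 3.99 and 3.99 at day 7, 4.05 and 3.98 at day 10, and 4.40 and 4.05 at day 14. MGT cultures gave 3.96 and 3.91 at day 3, 3.75 and 3.76 at day 5, 3.74 and 3.75 at day 7, 3.77 and 3.76 at day 10, and 4.13 and 4.03 at day 14. The pairs were separate on days 3 to 10 and overlapped at day 14, again without a count over all genes. The average was -0.28 (SE 0.04, adjusted p = 3.00e-05). By day it was -0.37 at days 3 and 5, -0.25 at days 7 and 10, and -0.15 at day 14, where it did not pass (adjusted p = 0.18). That day 14 value rested on 1 array: it was -0.33 (adjusted p = 0.000532) without the second lacZ array and 0.03 without the first. It also passed as the mean of the kept probes, at -0.33 (adjusted p = 0.000438), and in the authors' deposited table, at -0.23 (adjusted p = 0.022). The calls at days 7 and 10 had adjusted p of 0.038 and 0.035 and were each lost under 9 alternatives.

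Within the slides, the other calls of the averaged comparison held. Rbm24, Rbm20, Qk, Celf2, Mbnl1, Mbnl2 and Celf1 passed in the same direction on the slide of days 3 and 5 and on that of days 7 and 10. For Celf1 the values were -0.58 and -0.23, for Mbnl1 -0.42 and -0.25, and for Mbnl2 -0.37 and -0.25. Ptbp2 passed on the first only, at -0.24 (adjusted p = 0.017), with 0.14 on the second (adjusted p = 0.13). Of all genes 45.8% were called on the first slide (18.3% higher, 27.6% lower) and 50.2% on the second (19% higher, 31.2% lower). Averaged over days 3 to 10, 4 of the 9 were higher and 3 lower, with 59% of genes called, 22% higher and 36.9% lower.

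The members called on single days are set beside the share of all genes called. At day 3, 4 were higher and 4 lower, with 30.4% of 18060 genes called, 12.3% higher and 18.1% lower. At day 5, 4 were higher and 3 lower, with 38.1% of genes called, 16.2% and 21.9%. At day 7, 4 were higher and 3 lower, with 37.3% called, 14.9% and 22.4%. At day 10, 4 were higher and 2 lower, with 39.3% called, 15.2% and 24.1%. At day 14, 5 were higher and 2 lower, with 47.6% called, 18.3% and 29.3%. The day 14 split of 3301 genes higher and 5288 lower became 4261 and 4004 under quantile normalization and 2583 and 7034 under normexp background correction. The 4 called higher on each day were Rbm24, Rbm20, Qk and Celf2, joined by Ptbp2 at day 14.

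**Figure D3:**
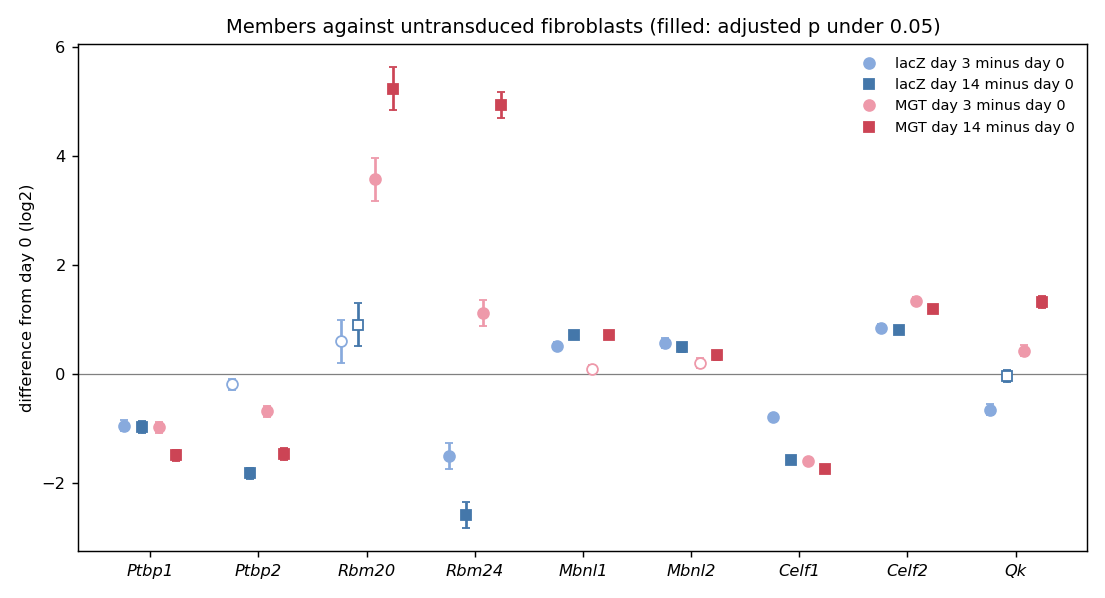
Difference from day 0 (vertical axis, log2, with standard error) of lacZ and MGT cultures at days 3 and 14, for each of the 9 genes. Filled points passed an adjusted p of 0.05. Ptbp1 and Celf1 were lower and Celf2 was higher in all 4, while Rbm24 fell with lacZ and rose with MGT.

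Against D0 all of the comparisons share the same 2 control arrays, so their values stand side by side and do not support each other. In lacZ day 3, 3 of the 9 were higher and 4 lower, with 57.8% of all genes called, 28.8% and 29%. In MGT day 3, 4 were higher and 3 lower, with 62.4% called, 29.3% and 33.1%. In lacZ day 14, 3 were higher and 4 lower, with 68.9% called, 35.5% and 33.4%. In MGT day 14, 6 were higher and 3 lower, with 70.5% called, 33.1% and 37.4%. Most genes moved in these comparisons, and all but lacZ day 14 against D0 crossed slides. By its brightest probe, Celf2 was higher than D0 by 0.83 in lacZ day 3 and 1.33 in MGT day 3. It was higher by 0.80 in lacZ day 14 and 1.19 in MGT day 14. Against that probe, A_55_P2005555 differed by -0.59 in lacZ day 3 and -0.47 in MGT day 3 (limma adjusted p = 0.0042 and 0.013). A_51_P182471 differed from it by -0.22 in MGT day 14 (adjusted p = 0.019). Of all further probes, 32.1%, 34.8% and 35.2% differed in these 3 comparisons. Mbnl1 was higher by 0.51 in lacZ day 3, 0.70 in lacZ day 14 and 0.70 in MGT day 14. Endothelial markers were lower than at D0 for 6 of 8 in lacZ day 14 (median -2.59) and 7 of 8 in MGT day 14 (median -3.68). Cardiomyocyte markers were lower for 8 of 10 in lacZ day 14 and higher for 9 of 10 in MGT day 14. Epicardial markers were higher for 4 of 6 in both, and neuron markers for 5 and 4 of 8. Macrophage markers were higher for 7 and 6 of 8: their summed signal was 4.78 to 4.94 at D0, 7.26 to 7.70 in lacZ day 14 and 6.89 to 7.01 in MGT day 14, and all 8 were well above background in each. Their part in the results was not tested.

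The difference between vectors changed from day 3 to day 14 for 5 of the 9, against 27.6% of all genes, 12.3% upwards and 15.2% downwards. It rose by 4.91 for Rbm24 (SE 0.34, adjusted p = 6.14e-07), 0.85 for Ptbp2 (SE 0.15, adjusted p = 0.00095), 0.65 for Celf1 (SE 0.08, adjusted p = 0.000102) and 0.43 for Mbnl1 (SE 0.09, adjusted p = 0.00428). It fell by 0.50 for Ptbp1 (SE 0.15, adjusted p = 0.0255). The Rbm24 value rests on lacZ day 14 signals at background. Normexp background correction gave 0.49 for Ptbp2 (adjusted p = 0.15) and 0.10 for Mbnl1 (adjusted p = 0.72), and in the deposited table the changes were 0.51 (adjusted p = 0.16) and 0.33 (adjusted p = 0.39). From day 3 to day 10, where each day's vectors shared a slide, 15.8% of genes changed, 7.82% upwards and 8.03% downwards. Rbm24 and Rbm20 were not well above background in lacZ day 10, so their changes have no exact size. Ptbp2 changed by 0.73 (adjusted p = 0.00425), and Celf1 by 0.69 (adjusted p = 8.95e-05). Ptbp1 changed by -0.14 (adjusted p = 0.62) and Mbnl1 by 0.19 (adjusted p = 0.20), neither past the threshold.

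**Figure D4:**
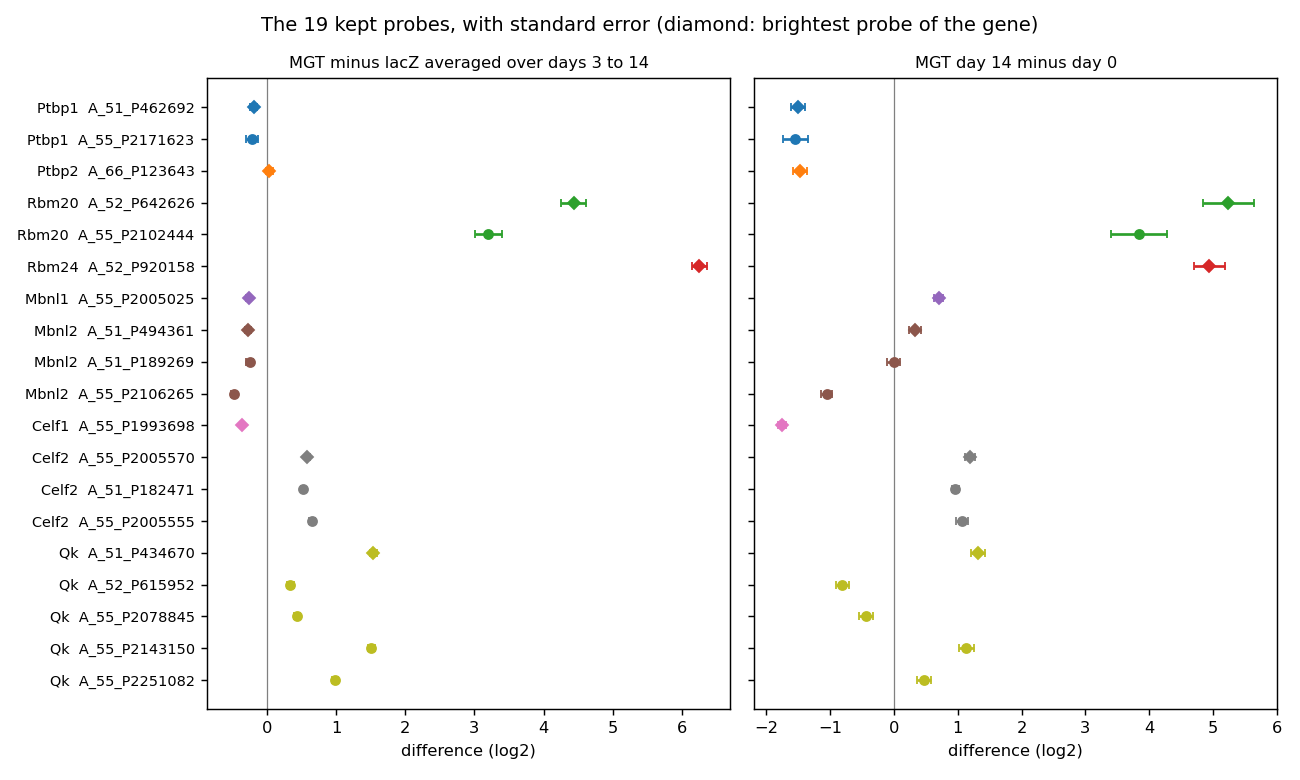
Difference of each of the 19 kept probes (horizontal axes, log2, with standard error), for MGT minus lacZ averaged over days 3 to 14 on the left and MGT day 14 minus day 0 on the right. Diamonds mark the brightest probe of a gene. The 5 Qk probes ran from 0.34 to 1.54 on the left, and 2 of them lay below 0 on the right.

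Probes of Qk disagreed. Its transcripts share most coding exons and take alternative ends, which give proteins with different tails. The brightest probe, A_51_P434670, is annotated to transcript variant 3 at chr17:10403164-10403223 (mm9, minus strand), and it and the coding probe printed above rose alike with MGT, by 1.54 and 1.51. These differed by -0.03 (adjusted p = 0.58). The coding probe is annotated to transcript variant 1. Both probes annotated further downstream on that same variant rose less: A_52_P615952 at chr17:10400126-10400185 gave 0.34, and A_55_P2078845 at chr17:10401525-10401584 gave 0.43. Their shortfalls from the brightest probe were -1.20 (SE 0.04, adjusted p = 1.08e-10) and -1.10 (SE 0.06, adjusted p = 1.58e-08). Across all genes with several kept probes, 25.9% of 5728 further probes differed from their brightest probe in this comparison. The shortfall was present on every day for both, from -0.93 to -1.55 for the former, on days when 3.68% to 22.2% of further probes differed. At day 3 neither of them passed for MGT against lacZ, at 0.03 and 0.06 (limma adjusted p = 0.93 and 0.82). The remaining probe, A_55_P2251082 on a clone, gave 0.98.

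The levels show the same split. At D0 the variant 3 probe read 3.1 and 3.15, and A_52_P615952 read 2.52 and 2.39. In MGT day 14 the former read 4.43 and 4.44 and the latter 1.64 and 1.67. The former lay above its D0 pair and the latter below, by 1.31 and -0.80, a difference of -2.12 (adjusted p = 2.21e-09, 35.2% of further probes called). In lacZ day 14 the variant 3 probe read 3.11 and 3.05, and A_52_P615952 read 1.22 and 1.24, a difference between the probes of -1.18 (adjusted p = 4.08e-07, 37% called). The ratio of the probes therefore also moved in control cells, on a single slide.

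The 3 Mbnl2 probes disagreed against D0. The brightest, A_51_P494361, read 3.76 and 3.72 at D0 and 4.13 and 4.03 in MGT day 14, a rise of 0.34. The coding probe printed above read 1.77 and 1.86 at D0 and 0.76 and 0.77 in MGT day 14, a fall of 1.05. The probes differed by -1.39 there (SE 0.07, adjusted p = 1.14e-08) and by -0.97 in lacZ day 14 (adjusted p = 3.05e-07). The remaining one, A_51_P189269, differed from D0 by -0.0022 in MGT day 14 (adjusted p = 0.99). Against lacZ, averaged, all 3 were lower, by 0.28 for the brightest, 0.48 for the coding probe and 0.25 for the other, and the coding probe fell further than the brightest by -0.21 (adjusted p = 0.000236). The direction of Mbnl2 against D0 thus depends on the probe, and its fall with MGT against lacZ did not for these 3.

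Other splicing regulators and known targets were described by lists, as gene levels and not as splicing. Among 28 other tissue splicing regulators, 6 were higher and 13 lower in the averaged comparison, with a median of -0.20, against 23.3% and 40.6% of all genes and a median of -0.09. The largest differences were of Elavl2, a neuronal RNA-binding protein, at -1.48, Elavl3 at -1.27 (adjusted p = 0.20) and Esrp2, a regulator of epithelial exons, at -1.17. Elavl2 and Elavl3 were well above background on 5 and 1 of 10 MGT arrays, so these are low signals. Neuron markers were higher for 1 and lower for 5 of 8, and their part was not tested. Among the relatives of the 9, Ptbp3 differed by -0.19, Mbnl3 by 0.55, Celf4 by -0.56 and Celf6 by -0.53, all past the threshold. Rbpms and Rbpms2, regulators of muscle exons, were higher by 0.64 and 0.99.

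Of 6 PTBP1 partners and fellow exon repressors, 1 was higher and 3 lower (median -0.09). Matr3, a partner of PTBP1, rose by 0.45 (adjusted p = 3.57e-07), and the corepressors Raver1 and Raver2 fell by 0.25 and 0.15. Of 11 transcripts with exons under PTBP1 control, 4 were higher and 4 lower (median 0.03). Tpm1, the tropomyosin gene with muscle exons, rose by 0.78, the death receptor gene Fas by 0.53, and Dlg4, a synaptic scaffold, fell by 0.49.

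Transcripts with exons under RBM20 or RBM24 control were mostly higher: 13 of 14 measured were higher and 1 was lower, with a median of 1.11. Titin (Ttn), RBM20's best known target, differed by 9.07, the ryanodine receptor gene Ryr2 by 7.0 and triadin (Trdn) by 5.10. Ttn and Ryr2 were well above background on only 2 of 10 lacZ arrays and Trdn on 7, so these fitted values are no exact folds. Mlip, also called higher, was well above background on 1 of 10 lacZ arrays and 5 of 10 MGT arrays. The filter on dim signals may have set its call in part. Naca, the lower one, differed by -0.13. Of 15 measured transcripts with exons under MBNL or CELF control, 10 were higher and 3 lower (median 0.58), led by Tnnt3, a skeletal troponin, at 5.34, dystrophin (Dmd) at 4.07 and the Z-disc gene Ldb3 at 3.43. Of 6 transcripts with exons under QK control, 3 were higher and 2 lower (median 0.11). Myocd, a coactivator of muscle genes, rose by 1.52 and Ndrg2 by 1.44, and Mbp, a myelin gene, fell by 0.92. Many genes of the RBM20 or RBM24 and the MBNL or CELF lists are muscle genes, and cardiomyocyte markers were higher in the same comparison.

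**Figure D5:**
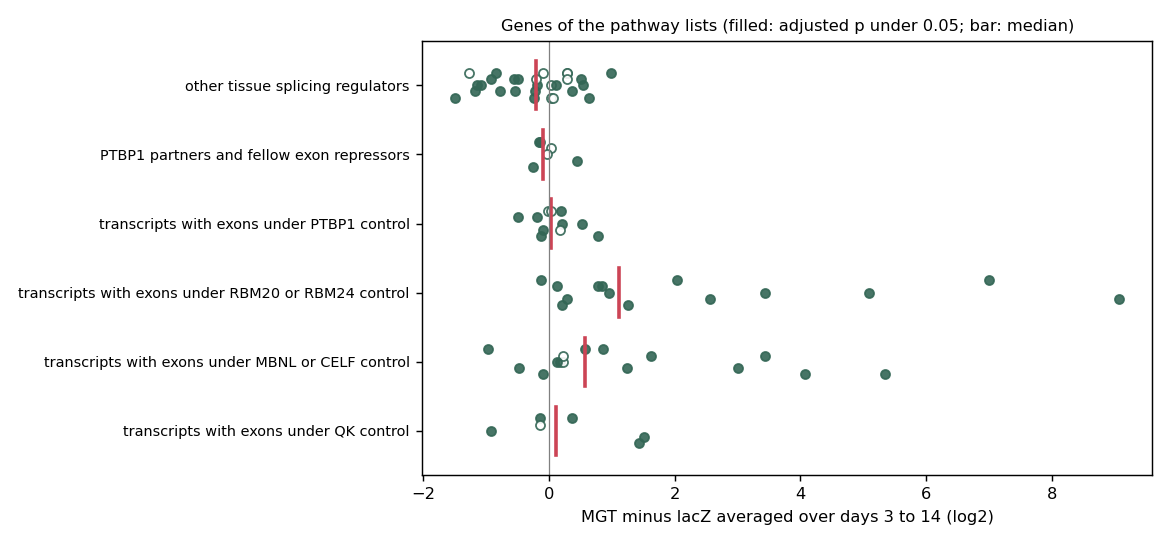
MGT minus lacZ averaged over days 3 to 14 (horizontal axis, log2) for each measured gene of the 6 lists, filled where the adjusted p was under 0.05, with a bar at each list's median. Transcripts under RBM20 or RBM24 control reach 9.07 (Ttn), and the other tissue splicing regulators centre at -0.20.

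Genes whose level followed a regulator most closely over the 22 arrays were taken from those above background on all arrays, by Pearson r, as a description. The arrays share days, vectors and slides. Ptbp1 was most like Tardbp (r = 0.959), Shq1 (0.952) and Ddx39b (0.951). By Spearman rank correlation these 3 gave 0.886, 0.879 and 0.82, and Sp110 came first instead. Ptbp2 was most like Dcaf1 (0.968), Rbmxl1 (0.961) and Ddx46 (0.953). Rbm20 was most like Colq (0.991), Pacsin3 (0.983) and Dsp (0.983), and Rbm24 was most like Cav3 (0.987), Ano1 (0.981) and Lrrc3b (0.98). Rbm20 itself was well above background on only 10 of the 22 arrays and Rbm24 on 14. The closest were Itga11 for Mbnl1 (0.952), Gja4 for Mbnl2 (0.895), Eef1aknmt for Celf1 (0.983), Misp3 for Celf2 (0.985) and Efhd2 for Qk (0.991). Another gene came first by Spearman rank correlation for each of the 9, so these first places depend on the measure. Among the 9 themselves, over the same arrays, r was 0.93 for Rbm20 with Rbm24, 0.941 for Rbm24 with Qk and 0.871 for Ptbp1 with Celf1, and -0.818 for Celf1 with Celf2.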

How the data were processed

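Total RNA of 22 samples was hybridised to 1-colour Agilent arrays. Per the file headers, Feature Extraction 10.7.3.1 gave the deposited processed intensity, with background subtracted, and the mean intensity and median background used for normexp. The authors also deposited a table of 1 intensity per gene name. Neither label nor header gives its scaling and centring. The submitters' processing notes list limma. It served as an alternative. The table minus the mean of a gene's probes was between -0.06 and 0 (log2, median of arrays) for Ptbp1, Ptbp2, Mbnl2, Celf1, Celf2 and Qk. It was 0.25 for Rbm24, 2.10 for Mbnl1 and 3.41 for Rbm20, so the table is higher than the probes' mean there.

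The table holds 7 of the genes by name. Celf1 and Celf2 are there under the older names Cugbp1 and Cugbp2. Control and outlier spots were left out, and log2 processed signals were set against each array's 75th percentile. Probes that stood well above background in both samples of some group were kept (38813 of 55681). They were named through accession (26161 of all), symbol (3131) or synonym (910). A gene's value is its kept probe with the highest mean. For a group with no array well above background, the bound takes, per array, the higher of the lowest signal well above background and the probe's own.

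A model of 11 group means was fitted with limma 3.58.1 in R 4.3.3 (11 residual and 1.66 prior degrees of freedom), with Benjamini-Hochberg adjustment over all genes and a threshold of 0.05. Further probes were compared with the brightest by limma on their log2 ratio within arrays. The code was tested on simulated data. Alternatives covered background, scaling, filter, probe choice, the deposited table, the replicate block, the arrays fitted and leaving out each array. The averages within slides and the comparison between probes were added after seeing the data. Probes are placed as the array design gives them, and promoter sequences are RefSeq's.

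Named were the 9 genes with every probe, the 3 most like genes of Ptbp1, Ptbp2, Rbm20 and Rbm24 and the most like gene of the others, and up to 3 genes per list with the largest averaged difference. Ptbp3, Mbnl3, Celf4, Celf6, Rbpms, Rbpms2, Naca, Thy1, Pln, Myog, Myh3 and Mlip were named after their values were seen. The genes and lists were chosen with earlier results of these data known.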

Additional observations from a re-analysis of the deposited data

Results flagged for a closer look

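The difference between MGT and lacZ changed between day 3 and day 14, by the interaction term of the limma fit, for 5 of the 9 genes. The change was -0.50 for Ptbp1 (adjusted p = 0.0255), 0.85 for Ptbp2 (adjusted p = 0.00095), 4.91 for Rbm24 (adjusted p = 6.14e-07), 0.43 for Mbnl1 (adjusted p = 0.00428) and 0.65 for Celf1 (adjusted p = 0.000102). Ptbp1 and Rbm24 moved away from lacZ, Mbnl1 and Celf1 came closer to it, and Ptbp2 went from below to above. The Rbm24 value rests on lacZ signals at background at day 14. The calls of Ptbp2 and Mbnl1 were lost under normexp background correction (0.49 and 0.10) and in the deposited table (0.51 and 0.33), and that of Ptbp1 under 10 alternatives. At day 14 the vectors lay on different slides, and only Rbm24, Ptbp2 and Celf1 of these 5 also passed from day 3 to day 10.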

How the results depend on the processing

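Of 1501 values under alternatives, 1382 kept their direction and side of the threshold, 69 lost the call, 27 gained it and 23 turned. The averaged Ptbp1 difference passed under every alternative run, from -0.11 (quantile normalization) to -0.24 (without the first day 14 lacZ array), and from -0.16 to -0.24 over the arrays left out. Each of these kept day 14, where the vectors lay on different slides, so they do not test that limit. Averaged over days 3 to 10 only, the difference was -0.11 and did not pass (limma adjusted p = 0.079). The counts of regulators called were 4 to 5 higher and 3 to 4 lower. The averaged differences of Rbm24, Rbm20, Qk and Celf2 also passed throughout, except that probes above background on every array gave no value for Rbm20 and Rbm24. The authors' deposited table turned Mbnl1 to 0.33 at day 5, 0.14 at day 10 and 0.0839 averaged, and Mbnl2 to -0.13 for MGT day 14 against D0. The mean of all kept probes turned Mbnl2 to -0.24 there and Qk to -0.0352 for MGT day 3 against D0. Among results that did not pass, quantile normalization turned Ptbp1 at day 3 to 0.0088, Mbnl2 at day 14 to 0.0049 and the change of Celf2 from day 3 to day 14 to 0.0284. Scaling on probes above background on every array turned Ptbp1 at day 3 to 0.0351. Normexp turned Mbnl1 to -0.30 and Mbnl2 to 0.0185 at day 14, Ptbp2 to -0.0181 averaged and Mbnl1 to -0.0296 for MGT day 3 against D0. The deposited table turned Ptbp2 to -0.0108 averaged, and the mean of kept probes turned Rbm20 to -0.0451 for lacZ day 3 against D0. Leaving out an array turned Ptbp1 at day 3 (up to 0.0511), Ptbp2 at day 5 (-0.0339 to 0.0766) and day 7 (-0.059 to 0.1596), and Mbnl1 (-0.0573 to 0.0597) and Mbnl2 (-0.325 to 0.0282) at day 14. The change of Ptbp1 from day 3 to day 14 lost its call under 10 alternatives, and was -0.29 (adjusted p = 0.057) when the second day 14 lacZ array was left out.

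Replicate numbers did not pair the samples (correlations of -0.03 to 0.09 by day). With the replicate block the averaged Ptbp1 difference was -0.20 (limma adjusted p = 0.00323), and of the 9 genes' calls only that of Mbnl2 in MGT day 3 against D0 moved, to 0.0499. With only the arrays compared, 3287 genes passed at day 10 against 7103, 2699 at day 14 against 8589, and 3294 for the change from day 3 to day 14 against 4977. Scaling on probes above background on every array gave 2738 genes higher and 2559 lower at day 3, 3273 and 3243 at day 7, 3297 and 3342 at day 10, and 4387 and 3990 at day 14. The deposited table gave 3802 and 3886 at day 14. The day 14 median gene moved from -0.09 to 0.02 under that scaling and to -0.24 under normexp. The slide as a random block was not run, since each group lay on 1 slide. Signals near background limit the folds of Rbm20 and Rbm24.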
